A study of Mus musculus with 8 samples.

Results

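Astrocytes are the glial cells that take up transmitter, buffer potassium and water, and respond to injury by a change of state called reactivity. The genes described here are 32 that mark these cells, 21 of astrocyte identity and 11 that are raised in reactive astrocytes. They were chosen by gene symbol from the 41128 genes in the table of read counts, and all 32 were found. RNA was sequenced from the corpus callosum, the large white matter tract that joins the hemispheres, of PLP-150Q mice. In these mice a fragment of mutant huntingtin with a long glutamine repeat is driven by the promoter of the proteolipid protein gene, which is active in oligodendrocytes, so the transgene is aimed at cells other than astrocytes. Treatment began at 3 months of age and lasted 2 months, with either LAQ (laquinimod, an immunomodulatory quinoline carboxamide) at 5 mg/kg or purified water, and the mice were 5 months old at the end. There were 4 control libraries, numbered 1 to 4, and 4 LAQ libraries, numbered 5 to 8, which matches the 4 mice per group of the study design. Both groups carry the transgene and no mouse without it is among the samples, so the comparison is that of LAQ with vehicle in transgenic mice. Sex, litter and genetic background are not given in the sources used here.

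Identity genes cover the work of a resting astrocyte. The transporters Slc1a2 (GLT-1) and Slc1a3 (GLAST) clear glutamate from the extracellular space, Glul (glutamine synthetase) converts it to glutamine, and Aqp4 (aquaporin-4) carries water at the endfeet that astrocytes place on blood vessels. In reactivity the intermediate filament proteins Gfap and Vim increase, together with secreted proteins such as Serpina3n and Lcn2, in part through cytokine receptors that signal through STAT3. White matter astrocytes are fibrous cells that normally hold much Gfap. The count is that of a whole piece of tissue, so fewer astrocytes and less RNA in each astrocyte cannot be told apart.

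Total counts ranged from 8790749 to 11972197 in control and from 9634156 to 12021429 in LAQ. Levels are given as CPM, read counts on a common library size after TMM scaling, in the order of the library numbers. LAQ 7 stood apart from the other libraries: the chi-square statistic per degree of freedom between its counts and those of another LAQ library was 15.0 to 23.9, against 7.44 to 8.43 among LAQ 5, 6 and 8 and 4.07 to 5.76 among the controls. Markers of neighbouring regions varied between the pieces. The summed level of 6 striatal neuron markers was 381, 985, 2439 and 1230.2 CPM in LAQ 5 to 8, against 987 to 1289.5 CPM in control. Oligodendrocyte markers summed to 11976 to 13755 in control and 12688 to 16637 in LAQ over 8 genes, higher in LAQ for 8 of 8, and 8 neuron markers summed to 6573 to 7201 in control and 5368 to 7156 in LAQ. Of all markers of other cells that were summed here, only Dsp, a marker of hippocampal granule neurons, was at 0 in a library. RNA of neurons and of neighbouring regions was thus measured together with that of white matter.

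Promoter sequences are shown for 4 members whose levels differed most visibly between the groups, or which define the cells, since the STAT and NFI families of transcription factors are known regulators of Gfap and other astrocyte genes. Each sequence runs 5′ to 3′ on the strand of the gene, from 250 bases before to 50 bases after a RefSeq transcription start, on build GRCm38.p6. Capitals mark a match to the STAT motif TTCNNNGAA, which reads the same on both strands, or to the NFI half-site TTGGC or its reverse complement GCCAA; in the sequences shown no match overlaps another.
Gfap promoter, chr11:102897151-102897450, minus strand: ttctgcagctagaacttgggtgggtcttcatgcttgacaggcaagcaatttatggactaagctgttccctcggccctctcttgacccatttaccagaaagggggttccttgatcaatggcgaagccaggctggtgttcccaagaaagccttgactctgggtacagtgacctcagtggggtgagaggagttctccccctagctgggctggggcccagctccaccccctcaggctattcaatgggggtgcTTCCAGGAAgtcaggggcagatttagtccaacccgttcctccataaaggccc
Hopx promoter, chr5:77115074-77115373, minus strand: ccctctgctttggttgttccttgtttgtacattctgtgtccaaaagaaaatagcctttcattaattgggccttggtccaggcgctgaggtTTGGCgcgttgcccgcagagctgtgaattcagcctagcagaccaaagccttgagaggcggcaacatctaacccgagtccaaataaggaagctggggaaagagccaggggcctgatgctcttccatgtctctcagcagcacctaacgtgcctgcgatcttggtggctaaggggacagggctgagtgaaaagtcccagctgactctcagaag
Slc1a2 promoter, chr2:102706188-102706487, plus strand: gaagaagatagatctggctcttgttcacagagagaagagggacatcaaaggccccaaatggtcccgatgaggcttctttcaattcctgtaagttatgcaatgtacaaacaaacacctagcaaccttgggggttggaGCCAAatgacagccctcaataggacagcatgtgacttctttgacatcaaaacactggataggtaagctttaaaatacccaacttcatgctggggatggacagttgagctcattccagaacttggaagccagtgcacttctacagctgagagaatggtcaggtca
Slc6a11 promoter, chr6:114130991-114131290, plus strand: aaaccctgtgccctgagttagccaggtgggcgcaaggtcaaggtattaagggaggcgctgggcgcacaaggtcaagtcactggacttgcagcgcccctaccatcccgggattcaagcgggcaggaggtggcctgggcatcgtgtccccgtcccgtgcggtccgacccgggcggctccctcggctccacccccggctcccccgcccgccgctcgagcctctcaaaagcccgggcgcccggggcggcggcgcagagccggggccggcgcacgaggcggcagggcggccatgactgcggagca
Gfap held a STAT match close to its start, Hopx and Slc1a2 held 1 NFI half-site each, and Slc6a11 held neither. Hopx has a second promoter in the table, chr5:77095218-77095517, with no match to either motif, which is not shown. The starts used for Slc1a2 and Gfap lie inside the annotated genes, which span chr2:102658659-102790784 and chr11:102887336-102900912. Neither sequence is therefore the one before the outer end of its gene. RefSeq promoters were matched for 29 of the 32 genes, 34 promoters in all, and Atp1b2, Aqp4 and Clu were not among them. A STAT match was present in 7 of the 34 (20.6%), those of Acsbg1, Agt, Aldoc, Gfap, Ntsr2, Slc1a3 and Steap4, against 8.3% of all 32851 promoters of the same length. The NFI half-site was present in 20 of the 34 (58.8%), against 46.7% of all. A match describes these letters and is not evidence of binding.

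Per kilobase of exon, every identity gene was above every reactive gene other than Gfap and Serpina3n in its control mean. Aldoc, the brain form of the glycolytic enzyme aldolase, had the highest control mean at 521 CPM per kilobase, followed by Clu (clusterin, a secreted chaperone) at 467, Gfap at 185 and S100b (a calcium-binding protein) at 146. The glutamate transporters lay at 111 (Slc1a3) and 73.3 (Slc1a2) CPM per kilobase, and the lowest identity gene was Slc4a4, a bicarbonate cotransporter, at 22.9. Serpina3n, a serine protease inhibitor, reached 83.1 CPM per kilobase in control. Vim, at 6.90 CPM per kilobase, was far below its partner Gfap. The remaining reactive genes with enough reads to be tested lay between 0.680 (Osmr, the oncostatin M receptor) and 4.39 (S1pr3, a sphingosine-1-phosphate receptor). Lcn2 (lipocalin-2), Timp1 (an inhibitor of metalloproteinases) and Steap4 (a metalloreductase), all induced strongly in reactive astrocytes, did not pass the filter on low counts. Lcn2 had 0, 1, 2 and 3 reads in control 1 to 4 and 8, 3, 1 and 5 in LAQ 5 to 8. Timp1 had 3, 2, 1 and 12 reads in control and 3, 8, 7 and 5 in LAQ, and Steap4 had 4, 4, 5 and 15 in control and 17, 7, 17 and 4 in LAQ. The groups overlapped for all 3 of these genes. The count of 0 for Lcn2 in control 1 allows up to 0.287 CPM, the worth of 3 reads, for counting error only. The other 29 genes, 21 of 21 identity genes and 8 of 11 reactive genes, were tested.

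**Figure D1:**
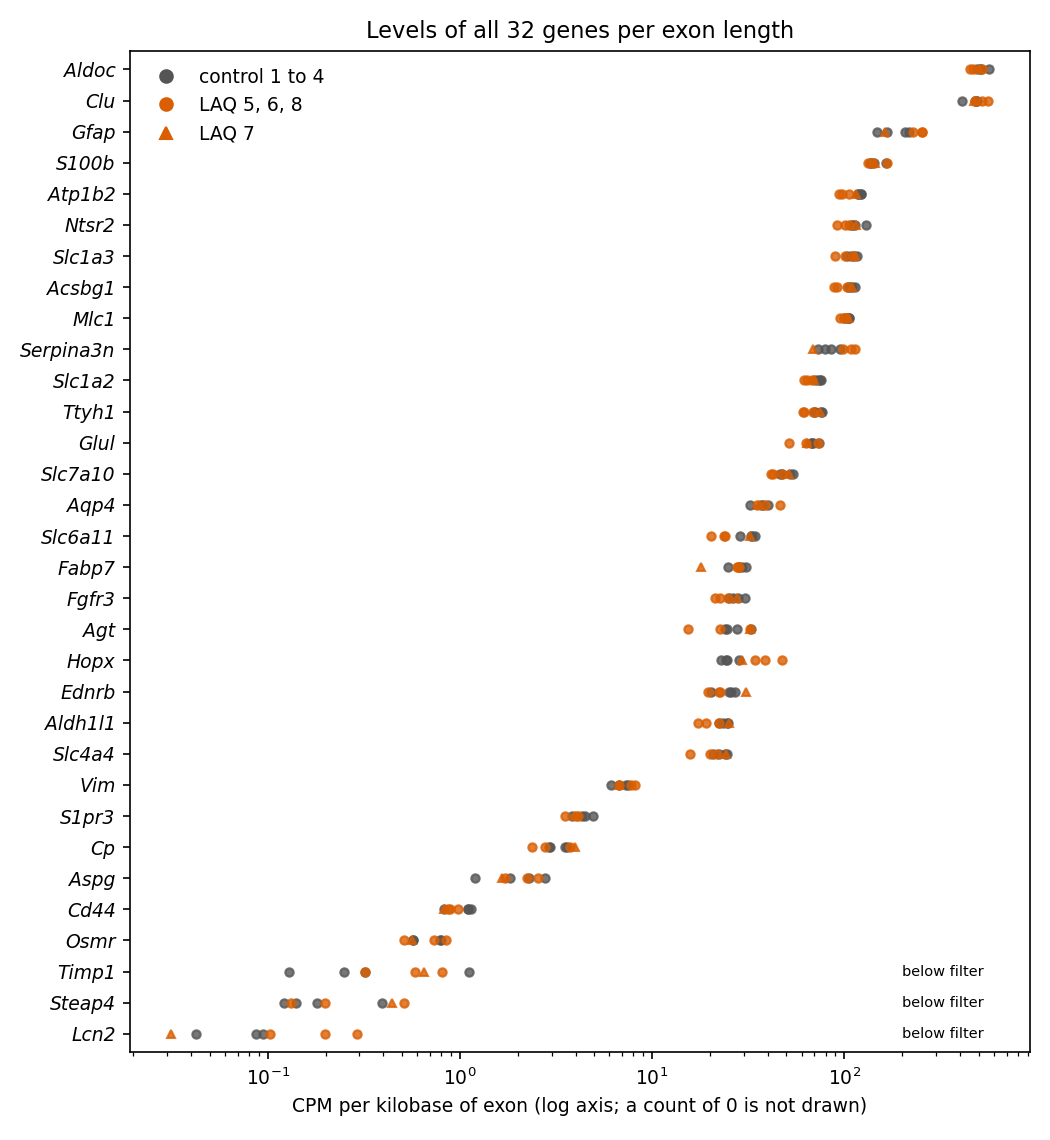
Levels of the 32 genes in each library, in CPM per kilobase of exon on a log axis, ordered by the control mean. Grey points are control 1 to 4, orange points LAQ 5, 6 and 8, and orange triangles LAQ 7; the 3 genes at the bottom, Timp1, Steap4 and Lcn2, had too few reads to be tested, and the identity genes all lie above Vim.

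No member passed the test between LAQ and control. With edgeR's quasi-likelihood test adjusted over all 15771 genes, 0 of 29 members were called (background 0% of all genes, where 998 were lower and 752 higher at an unadjusted p under 0.05), and the smallest adjusted p of a member was 0.181, for Hopx. At an unadjusted p under 0.05, 3 members were lower in LAQ (Atp1b2, Slc6a11 and Slc1a2; 6.33% of all genes) and 1 was higher (Hopx; 4.77% of all genes). With so few members past that level, these counts are near the background. The 4 LAQ values lay wholly below the 4 control values for 2 members, Atp1b2 and Slc1a2 (3.61% of all genes), and wholly above them for 1, Hopx (2.78% of all genes). The sign of the change was less even: 23 of 29 members had a log2 fold change below 0, against 50.3% of all genes, and among the identity genes 18 of 21 did, all but Aqp4, Clu and Hopx; S100b was so near 0 that its sign turned with RLE scaling factors. The median log2 fold change was -0.13 over the identity genes (0.912-fold), -0.01 over the reactive genes, -0.10 over all 29 and -0.00 over all genes tested. Markers of several other cells moved in the same direction: log2 fold changes were below 0 for 4 of 4 markers of oligodendrocyte precursors (median -0.16), 6 of 6 mural (-0.30), 8 of 8 endothelial (-0.19) and 7 of 8 microglia markers (-0.11). The precursor markers summed to 221, 189.6, 220.1 and 213 CPM in control and 184, 188, 222 and 156 CPM in LAQ, and the mural markers to 256, 287, 279.6 and 321 CPM in control and 198, 159, 330.1 and 272 CPM in LAQ, each highest in LAQ 7 among the LAQ libraries. Their part in the values for the identity genes was not tested. The members and marker lists were chosen with earlier results of these data known, so counts of direction, here and below, describe these lists only. The 95% interval, taken from the fitted standard error, lay within 1.5-fold in either direction for 26 of the 29 members, the exceptions being Hopx, Slc6a11 and Gfap.

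**Figure D2:**
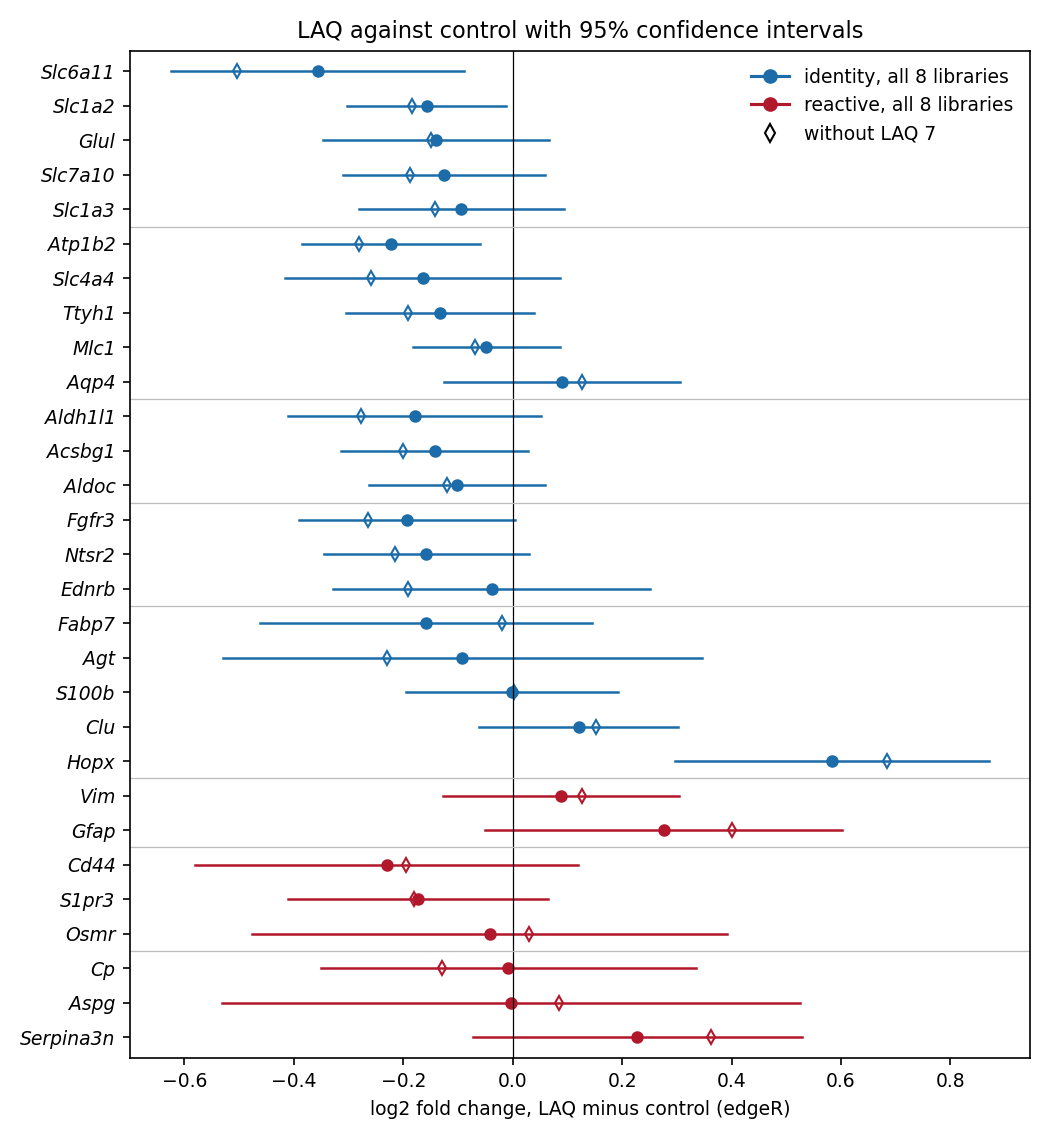
Log2 fold change of each tested member, LAQ minus control, with its 95% interval (filled circles, all 8 libraries) and without LAQ 7 (open diamonds). Identity genes are blue and reactive genes red, in blocks by role; 4 of 29 intervals exclude 0, those of Slc6a11, Slc1a2, Atp1b2 and Hopx, and the diamonds of Hopx, Gfap and Serpina3n lie further to the right than the circles.

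Hopx, an atypical homeodomain protein without DNA binding of its own that marks astrocytes and neural stem cells, had the largest change and the smallest p among the members. It lies at chr5:77086988-77115121, minus strand on GRCm38. Its level was 34.7, 37.1, 42.8 and 36.7 CPM in control 1 to 4 and 71.5, 51.9, 44.5 and 58.8 CPM in LAQ 5 to 8, that is a mean of 37.8 ± 3.47 CPM (SD, n = 4) against 56.7 ± 11.5 CPM (SD, n = 4) with LAQ. Every LAQ library was above every control library, although LAQ 7 exceeded control 3 by little. The log2 fold change was 0.58 ± 0.13 (SE), with an adjusted p of 0.181 by edgeR's quasi-likelihood test. DESeq2 called it, with an adjusted p of 0.0145 and a log2 fold change of 0.59; it was the only member among DESeq2's 129 calls, which are 0.837% of the 15403 genes with an adjusted p. The antisense gene Hopxos covers 412 bases of Hopx exon (27.2%), and the strand setting of the counting is not given in the sources used here, so reads of the pair cannot be told apart there. Hopxos had 268, 234, 220 and 299 reads in control and 474, 428, 344 and 342 in LAQ, likewise without overlap in CPM, and its log2 fold change was 0.54 ± 0.13 (SE; adjusted p = 0.181 by edgeR).

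Markers of hippocampal neurons and of ependymal cells were also higher on average in LAQ, though not in the same libraries throughout. The 6 hippocampal markers summed to 254, 247, 385 and 296 CPM in control and 557, 528, 279 and 364 CPM in LAQ, and all 6 had a log2 fold change above 0. LAQ 5 was the highest of the 8 libraries in that sum and in Hopx, whereas LAQ 7 and 8 were below control 3 in the sum and above every control in Hopx. The 8 ependymal markers summed to 50.5, 42.9, 49.9 and 53.4 CPM in control and 63.4, 64.2, 67 and 75.5 CPM in LAQ, with 8 of 8 above 0 and no overlap of the sums; LAQ 5 was the lowest LAQ library here. Wfs1 and Neurod6 had the largest control means of the 6 hippocampal markers, 138 and 96.1 CPM. Whether these 6 are confined to the hippocampus was not tested, nor was the part of either set of markers in the result for Hopx.

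All 5 identity genes of transmitter handling had a log2 fold change below 0, with a median of -0.14, and none was called. Slc6a11, which encodes the GABA transporter GAT-3, had the largest change towards lower levels among the members. Its level was 174, 167, 145 and 165 CPM in control and 121, 120.0, 164 and 102 CPM in LAQ, that is a mean of 163 ± 12.6 CPM (SD, n = 4) against 127 ± 26 CPM (SD, n = 4) with LAQ. LAQ 5, 6 and 8 were below every control and LAQ 7 lay within the control range. The log2 fold change was -0.36 ± 0.12 (SE), with an unadjusted p of 0.0133 and an adjusted p of 0.336 (edgeR). Markers of thalamic and habenular neurons were arranged alike: their sum was 402, 276, 274 and 279 CPM in control and 254, 169.9, 308 and 173 CPM in LAQ, lower for 6 of 6 markers, with LAQ 7 again inside the control range. Cortical neuron markers summed to 548 to 647 in control and 395 to 508 in LAQ, lower for 6 of 6 without overlap. Rora had the largest control mean of the thalamic and habenular markers, 113 CPM, against 80.5 CPM in LAQ. Whether the markers in these sums are confined to neurons was not tested, nor was the part of these regions in the values for Slc6a11.

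Slc1a2, the main glutamate transporter of the forebrain, was at 956, 923, 978 and 994 CPM in control and 809, 896, 911 and 836 CPM in LAQ. Its groups did not overlap, the highest LAQ library being LAQ 7, yet the difference was small, with a log2 fold change of -0.16 ± 0.07 (SE) and an adjusted p of 0.422 (edgeR). This separation depended on the TMM scaling: by library size alone, LAQ 7 was above the lowest control. Slc1a3, the second transporter, was at 965, 931, 999 and 886 CPM in control and 858, 951, 973 and 759.9 CPM in LAQ. Here only LAQ 5 and 8 were below the controls, and the log2 fold change was -0.09 ± 0.09 (SE) (adjusted p = 0.732 by edgeR). Glul and the serine and alanine transporter Slc7a10 had log2 fold changes of -0.14 and -0.13 and overlapping groups. Lrp3 covers 17.9% of the Slc7a10 exons on the opposite strand, so reads of the pair cannot be told apart there.

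Among the 5 genes for water, ions and membrane proteins, 4 had a log2 fold change below 0 and Aqp4 was above. Atp1b2, the beta-2 subunit of the sodium pump (AMOG), was the steadiest member in control, with a coefficient of variation of 2.01%. Its level was 502, 484, 482 and 498 CPM in control and 384, 433, 471 and 396 CPM in LAQ, that is a mean of 491 ± 9.87 CPM (SD, n = 4) against 421 ± 39 CPM (SD, n = 4) with LAQ. All 4 LAQ libraries were below all controls, LAQ 7 nearest to them. The log2 fold change was -0.22 ± 0.07 (SE), with an unadjusted p of 0.0115 and an adjusted p of 0.321 (edgeR). Ttyh1, a chloride channel homologue of the tweety family, was at 487, 449, 483 and 442 CPM in control and 394, 439, 475 and 389 CPM in LAQ, with LAQ 5, 6 and 8 below the controls (log2 fold change -0.13 ± 0.08 (SE), adjusted p = 0.553 by edgeR). Aqp4 was at 251, 200.4, 229 and 236 CPM in control and 290.3, 241, 225 and 219 CPM in LAQ. Only LAQ 5 was above all controls, and the log2 fold change of 0.09 ± 0.10 (SE) had an adjusted p of 0.780 (edgeR); without LAQ 5 its sign turned, to -0.00. Slc4a4 and Mlc1, the membrane protein of megalencephalic leukoencephalopathy, overlapped between the groups, with log2 fold changes of -0.16 and -0.05.

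All 3 metabolic enzymes and all 3 identity receptors had log2 fold changes below 0, and none was called. Aldh1l1, the folate enzyme widely used to mark astrocytes, was at 106, 111, 100.2 and 112 CPM in control and 85.8, 101, 113 and 78 CPM in LAQ. LAQ 5 and 8 were the 2 lowest libraries, LAQ 7 was the highest of all 8, and the log2 fold change was -0.18 ± 0.11 (SE) (adjusted p = 0.553 by edgeR). Acsbg1, an acyl-CoA synthetase, was at 393, 409.5, 379 and 385 CPM in control and 332, 371, 397 and 318 CPM in LAQ, again with LAQ 5, 6 and 8 below every control and LAQ 7 among them (log2 fold change -0.14 ± 0.08 (SE)). Aldoc had a log2 fold change of -0.10. The growth factor receptor Fgfr3 showed the same order, at 219, 189, 180.1 and 199.6 CPM in control and 161, 178, 197 and 153 CPM in LAQ, with a log2 fold change of -0.19 ± 0.09 (SE) and an adjusted p of 0.456 (edgeR). Ntsr2, a neurotensin receptor of astrocytes, was at 405, 337, 346 and 354 CPM in control and 315, 287, 360.1 and 331 CPM in LAQ (log2 fold change -0.16 ± 0.09 (SE)). The endothelin receptor Ednrb was widely spread in both groups and had a log2 fold change of -0.04. Genes on the opposite strand cover 13.9% of the Fgfr3 exons, and overlapping genes cover 13.4% of those of Aldh1l1, which leaves their counts uncertain to that extent.

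The other secreted and binding proteins did not share a direction. S100b was at 246, 205, 201 and 213 CPM in control and 206, 197, 214 and 247 CPM in LAQ, with a log2 fold change of -0.00 ± 0.09 (SE); the means of the groups were nearly equal. Oligodendrocytes also express S100b, and the part of their higher markers in its values was not tested. Clu was at 1671, 1413, 1689 and 1651 CPM in control and 1925, 1637, 1631 and 1789.5 CPM in LAQ, with LAQ 5 and 8 above all controls and a log2 fold change of 0.12. Choroid plexus, which also makes Clu, was present in varying amounts: its 6 markers summed to 2036, 386, 793 and 2487 CPM in control and 3622, 1279, 1634 and 3495 CPM in LAQ, highest in LAQ 5 and 8 and lowest in control 2, as Clu was, and their part in the values for Clu was not tested. Fabp7, a fatty acid binding protein of progenitors and astrocytes, had a log2 fold change of -0.16, which was -0.02 without LAQ 7. Agt (angiotensinogen), typical of astrocytes of the thalamus and other deep regions, ranged in LAQ from 29 CPM (LAQ 6) to 61 CPM (LAQ 8), the widest relative spread of an identity gene, with a log2 fold change of -0.09. In LAQ 5 to 8, Agt was at 42.5, 29, 61 and 61 CPM and the summed thalamic markers were at 254, 169.9, 308 and 173 CPM. The part of thalamic tissue in the values for Agt was not tested.

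Gfap was higher in 3 of the 4 LAQ libraries, but the groups overlapped. Its level was 708, 624, 873 and 917 CPM in control and 959, 1068, 689.8 and 1065 CPM in LAQ, that is a mean of 781 ± 138 CPM (SD, n = 4) against 946 ± 178 CPM (SD, n = 4) with LAQ. LAQ 5, 6 and 8 were above every control, while LAQ 7 was below 3 of the 4. The log2 fold change was 0.28 ± 0.15 (SE), with an adjusted p of 0.513 (edgeR). The controls ran from 624 to 917 CPM, a wider span than the difference between the group means, and control 2 was the lowest of the 8 libraries. Vim was at 35.5, 28.8, 32 and 34.6 CPM in control and 38.5, 31.9, 32 and 37 CPM in LAQ, and its log2 fold change of 0.09 ± 0.10 (SE) had an adjusted p of 0.787 (edgeR). Ependymal cells and vessels also hold Vim; beside the higher ependymal sum, the 8 endothelial markers summed to 269 to 341 in control and 165 to 346 in LAQ, with a log2 fold change below 0 for 8 of 8, and their part in the values for Vim was not tested.

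Serpina3n resembled Gfap in that LAQ 5, 6 and 8 lay above every control. It was at 150.1, 177, 195 and 165 CPM in control and 235, 203, 142 and 224 CPM in LAQ, and LAQ 7 was below every control. The log2 fold change was 0.23 ± 0.14 (SE) (adjusted p = 0.562 by edgeR). Serpina3n belongs to a family of closely related neighbouring genes, so its count is uncertain to the extent that reads were shared among them. The summed hippocampal markers had their lowest LAQ value in the same library, LAQ 7, at 279 CPM, and the part of hippocampal tissue in the values for Gfap and Serpina3n was not tested. For the other reactive genes the groups overlapped. The receptors S1pr3, Cd44 and Osmr had log2 fold changes of -0.17 ± 0.11 (SE), -0.23 and -0.04. S1pr3 was at 19.9, 17.2, 19.3 and 22 CPM in control and 18.3, 15.7, 17.6 and 18 CPM in LAQ, with 1 LAQ library, LAQ 6, below the control range. Cp (ceruloplasmin, a ferroxidase) and Aspg (an asparaginase) had log2 fold changes of -0.01 and -0.00.

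**Figure D3:**
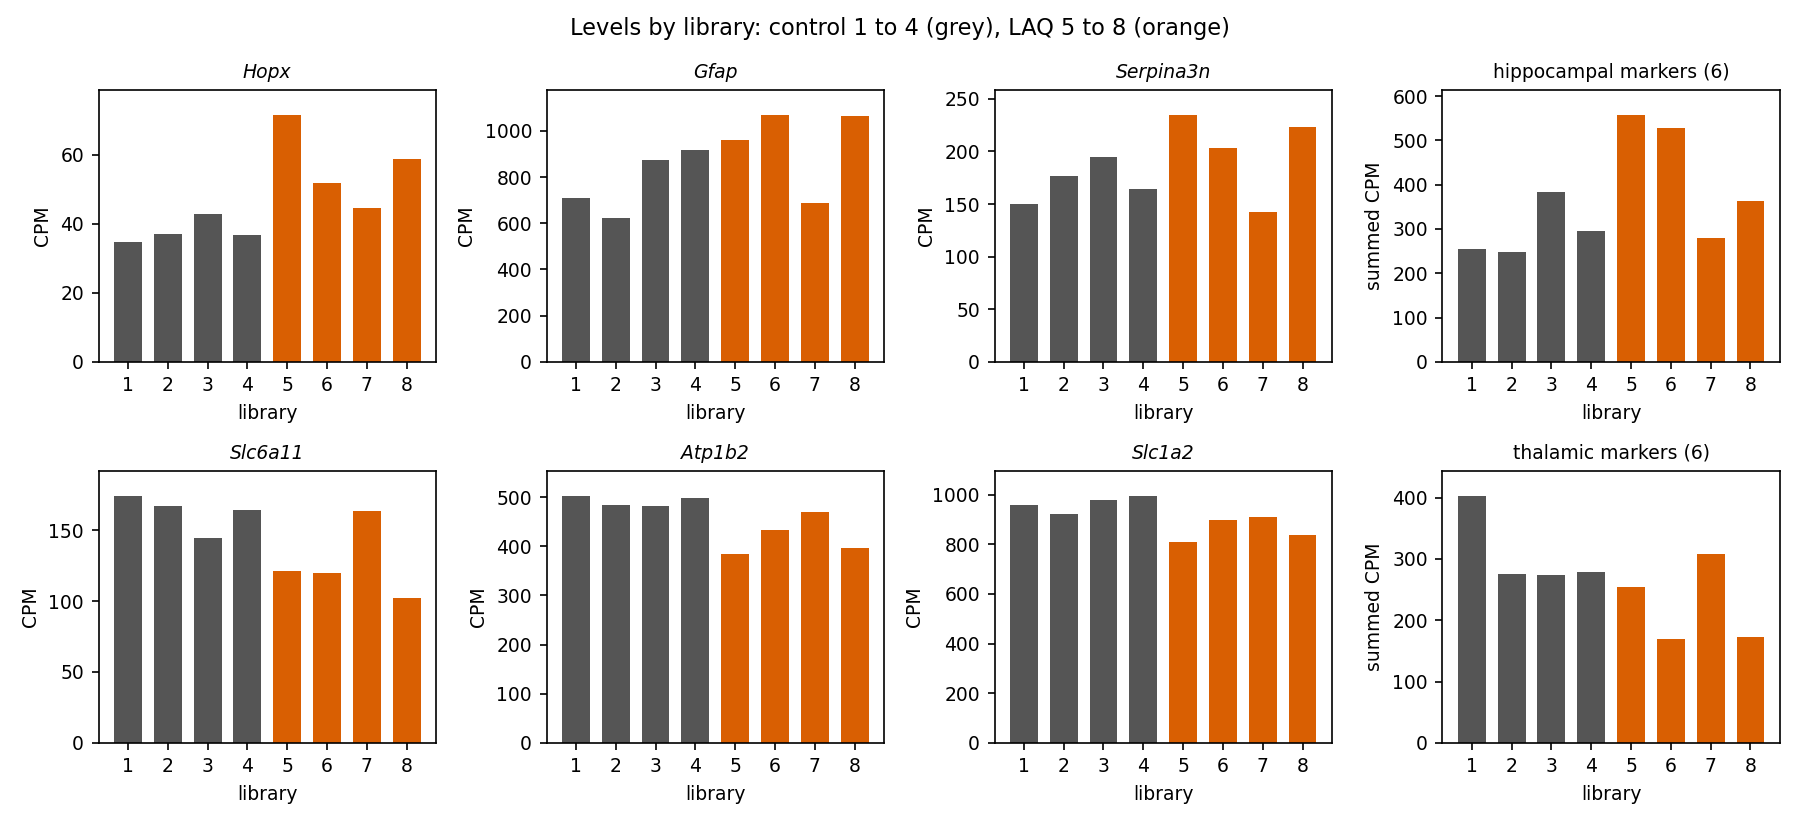
Levels of 6 members in each library (CPM, bars from 0) beside the summed CPM of 6 hippocampal and 6 thalamic neuron markers. Grey bars are control 1 to 4 and orange bars LAQ 5 to 8; Hopx and the hippocampal sum both peak in LAQ 5, at 71.5 and 557 CPM, and LAQ 7 lies near the controls for Slc6a11 (164 CPM).

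The LAQ libraries also differed among themselves. Of the 21 identity genes, 13 were below all 4 controls in LAQ 5 (27.2% of all genes tested), 13 in LAQ 6 (26.6% of all), 4 in LAQ 7 (25.0% of all) and 13 in LAQ 8 (26.1% of all). The median log2 deviation of the identity genes from the control mean was -0.20, -0.08, 0.01 and -0.14 in LAQ 5, 6, 7 and 8, and lay between -0.03 and 0.03 in the controls. The control mean was taken over these same 4 controls, so their deviations centre on 0 by construction. LAQ 8 was the lowest of the 8 libraries for 8 identity genes (14.2% of all genes tested). For the tested reactive genes the median deviation was 0.23, -0.05, -0.19 and 0.03 in LAQ 5 to 8 and ran from -0.18 (control 2) to 0.16 (control 4) in control, so that the groups overlapped. The median coefficient of variation of the identity genes was 7.41% in control and 11.0% in LAQ, and that of the reactive genes 12.6% and 19.6%. No such value was taken over all genes tested. The chi-square statistic between whole libraries was also larger within LAQ (7.44 to 23.9, and 7.44 to 8.43 among LAQ 5, 6 and 8) than within control (4.07 to 5.76). It is a different measure, so whether the wider spread is particular to these genes was not tested.

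**Figure D4:**
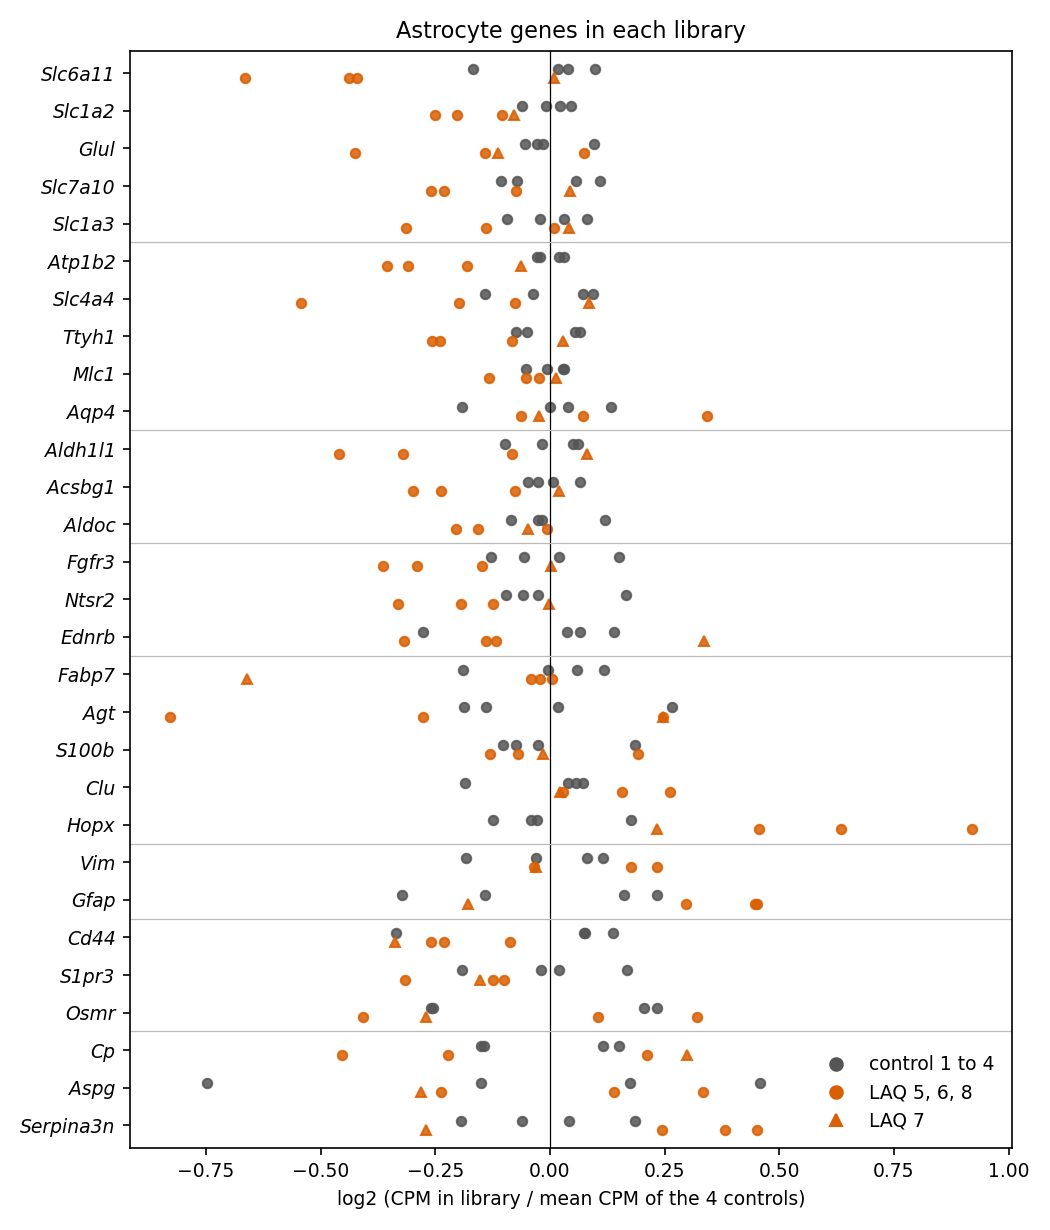
Level of each tested member in each library as the log2 ratio to the mean of the 4 controls, in blocks by role from transmitter handling (top) to reactive secreted proteins (bottom). Grey circles are control, orange circles LAQ 5, 6 and 8, and the orange triangle LAQ 7, which lies among the controls for most identity genes and left of the other LAQ libraries for Gfap and Serpina3n.

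Without LAQ 7, edgeR called 339 of 15898 genes (2.13%) and 3 of the 29 members. Hopx rose in LAQ, with a log2 fold change of 0.68 and an adjusted p of 0.0186, and Slc6a11 (-0.50, adjusted p = 0.0194 by edgeR) and Atp1b2 (-0.28, adjusted p = 0.0414) fell. Serpina3n and Gfap had log2 fold changes of 0.36 and 0.40 and adjusted p-values of 0.0507 and 0.0794 (edgeR), short of the threshold. At an unadjusted p under 0.05, 10 members were lower (10.8% of all genes) and 3 were higher (8.92% of all genes), and the 10 were all identity genes. The groups did not overlap for 7 members in the lower direction, namely Slc1a2, Slc6a11, Atp1b2, Ttyh1, Acsbg1, Fgfr3 and Ntsr2 (8.69% of all genes), and for 3 in the higher, Hopx, Gfap and Serpina3n (7.88% of all genes). The median log2 fold change became -0.19 for the identity genes and 0.06 for the reactive genes. The choice to leave out this library rests on its distance from the others and not on a label. That distance came from the same counts, so the p-values without LAQ 7 follow a choice made on the data and describe the remaining libraries only.

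Further genes of astrocytes were not called either. Of 36 further astrocyte genes, all tested, edgeR called 0 in either direction, 22 had a log2 fold change below 0 (50.3% of all genes) and the median was -0.06. At an unadjusted p under 0.05, 6 were lower (6.33% of all genes) and 0 higher (4.77% of all genes), and DESeq2 called 0. Slc25a18, a mitochondrial glutamate carrier, was at 67.8, 62.1, 62.1 and 60.7 CPM in control and 52.4, 55.2, 48.9 and 47.2 CPM in LAQ, without overlap and with LAQ 7 as low as the others. Its log2 fold change was -0.31 ± 0.08 (SE) (adjusted p = 0.192 by edgeR). Dio2, the deiodinase that activates thyroid hormone in astrocytes, and Kcnj16, an inwardly rectifying potassium channel, had log2 fold changes of -0.32 ± 0.11 (SE) and -0.24 ± 0.09 (SE) and overlapped between the groups.

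Genes linked to types of reactivity had no call by edgeR with all libraries. Of the 11 genes of the A1 type, first described after inflammation, 0 were called, 9 had a log2 fold change above 0, the median was 0.23, and at an unadjusted p under 0.05 3 were higher (4.77% of all genes) and 0 lower (6.33% of all genes). DESeq2 called 1, H2-D1 (0.837% of all genes with an adjusted p). H2-D1, a class I histocompatibility gene, was at 217, 209, 186 and 252 CPM in control and 364, 259, 252 and 313 CPM in LAQ, without overlap although control 4 and LAQ 7 nearly met, with a log2 fold change of 0.46 ± 0.12 (SE) (adjusted p = 0.238 by edgeR). It was called by edgeR without LAQ 7 (2.13% of all genes were), where its log2 fold change was 0.53 (adjusted p = 0.0335). The close relatives of H2-D1 make its count uncertain. The interferon-induced GTPases Iigp1 and Gbp2 had log2 fold changes of 0.94 ± 0.31 (SE) and 0.52 ± 0.22 (SE) at low levels, 1.46 and 5.51 CPM in control. Microglia and vessels express these genes too. The 8 microglia markers summed to 572 to 632 in control and 535 to 624 in LAQ, and the 8 endothelial markers to 269 to 341 and 165 to 346. The part of these cells in the values for the A1-type genes was not tested. Of the 12 genes of the A2 type, first described after ischaemia, 9 were tested and edgeR and DESeq2 called 0, with a median of 0.25 and, at an unadjusted p under 0.05 in edgeR, 1 lower gene (6.33% of all genes) and 0 higher (4.77% of all genes). Sphk1, a sphingosine kinase, was at 3.82, 3.56, 2.52 and 6.04 CPM in control and 2.19, 1.80, 2.31 and 2.39 CPM in LAQ (log2 fold change -0.89 ± 0.28 (SE), adjusted p = 0.279 by edgeR), without overlap. Cd109 and B3gnt5 had log2 fold changes of 0.89 ± 0.45 (SE) and 0.55 ± 0.36 (SE). Hspb1, a small heat shock protein, had a log2 fold change of -0.09 ± 0.28 (SE) and Cxcl10 had too few reads to be tested.

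Of 19 signals and transducers of reactivity, 15 were tested, 0 were called by edgeR or DESeq2 and 0 had an unadjusted p under 0.05 in edgeR. The median log2 fold change was -0.07. The cytokines Osm, Lif, Cntf and Tnf were too low to be tested. S1pr1, Cntfr (the receptor of ciliary neurotrophic factor) and Tgfb1 had the smallest p, with log2 fold changes of -0.20 ± 0.10 (SE), -0.33 ± 0.17 (SE) and -0.26 ± 0.19 (SE). S1pr1, a receptor that astrocytes share with endothelial cells, fell in the fit without LAQ 7 (log2 fold change -0.31, adjusted p = 0.0380 by edgeR), where 2.13% of all genes were called.

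**Figure D5:**
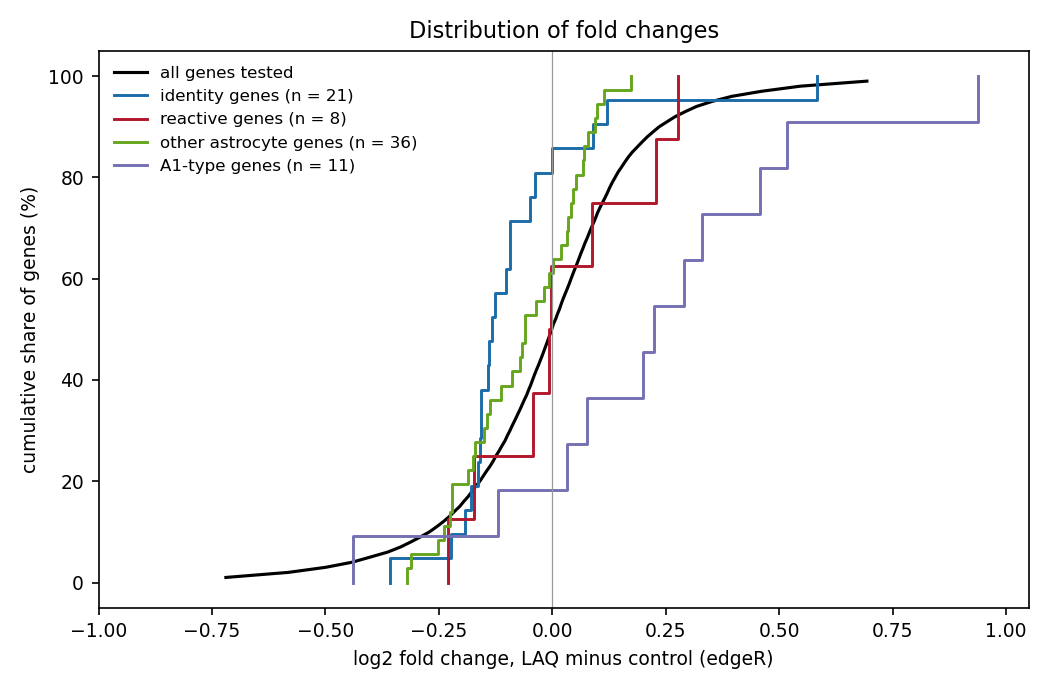
Cumulative share of genes (percent, vertical axis) by log2 fold change of LAQ minus control (horizontal axis). The black curve is all 15771 genes tested; the identity genes (blue, median -0.13) lie mostly to the left of it, the reactive genes (red, median -0.01) cross it near 0, and the A1-type genes (purple, median 0.23) lie mostly to its right.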

How the data were processed

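Poly(A) RNA of 8 pieces of corpus callosum was measured by RNA-seq. The authors deposited whole-number read counts per gene symbol. A second deposited table of normalized values was not used. The submitters' processing notes name bcl2fastq 2.17.1.14, STAR 2.5.2b, HTSeq, DESeq2 1.10.1 and build GRCm38.p3; the annotation release, strand setting and read filters are not given in the sources used here. In all, 0 columns were left unused.

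Genes were kept by edgeR's filterByExpr (minimum count 10, minimum total count 15), which left 15771 of 25164 genes with a count. LAQ was compared with control over all 8 libraries after TMM scaling by the two-sided quasi-likelihood test of edgeR 4.0.16 (with limma 3.58.1 under R 4.3.3), with Benjamini-Hochberg adjustment over all genes tested and a threshold of 0.05. Standard errors were derived from the log2 fold change and its F statistic. Group overlap was read from TMM-scaled CPM. Exon lengths and positions came from GENCODE M21. Alternatives were DESeq2 1.42.0, other scalings and filters, robust estimation, a threshold of 0.1, leaving out each library, and, added after the data were seen, loess trends on exon length and GC content. The steps were tested on simulated data. The members and lists were chosen with earlier results of these data known. Described in full were the 12 members of smallest p and 7 that define the cells (Gfap, Vim, Aqp4, Slc1a2, Slc1a3, Aldh1l1, S100b); from each related list, up to 3 genes of smallest p were named. Figures were drawn with matplotlib 3.10.9.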

Additional observations from a re-analysis of the deposited data

Results flagged for a closer look

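In 3 of 58 groups of 4 libraries, 2 for each of the 29 tested members, 1 library lay far from the other 3 by Dixon's criterion (gap over range above 0.829); chance flags about 1 in 20 groups. Clu was at 1413 CPM in control 2, below 1651 to 1689 CPM in the other controls. Fabp7 was at 22.4 CPM in LAQ 7, below 34.4 to 35.5 CPM in the other LAQ libraries, and its log2 fold change of -0.16 became -0.02 without that library. Cd44 was at 5.61 CPM in control 3, below 7.45 to 7.78 CPM in the other controls and level with the LAQ libraries, which held 5.91, 6.66, 5.60 and 6.03 CPM.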

How the results depend on the processing

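The count of genes past the threshold was 0 with all libraries; it was 25 with no filter on low counts and 129 with DESeq2, and leaving out 1 library at a time gave 0 to 339, the highest without LAQ 7. For the members that count was 0, 1 with DESeq2, and 0 to 3 with 1 library left out, again highest without LAQ 7. Members whose groups did not overlap numbered 3, and 3 to 10 with 1 library left out, 10 being without LAQ 7. With scaling by library size alone they numbered 2, 1 lower and 1 higher, and likewise 2 with no filter on low counts. The number of members with a lower level in LAQ, 23, lay between 18 and 23 under every alternative run, and their median log2 fold change between -0.15 and -0.09; with a loess trend on exon length or GC content removed, 22 members were lower and the medians were -0.11 and -0.09. Of 224 values of the fully described members under alternatives, 211 kept their direction and side of the threshold, 4 passed it only there (Hopx with DESeq2, and Hopx, Slc6a11 and Atp1b2 without LAQ 7) and 9 changed sign, in Aqp4 and S100b. Aqp4, at 0.09, ran from -0.0017 to 0.14 with 1 library left out, turning without LAQ 5. S100b, at -0.00, was 0.0023 with RLE factors, 0.0101 with no filter, 7.96e-05 with at least 1 CPM in 4 libraries and 0.0027 with DESeq2, and -0.069 to 0.068 with 1 library left out. For these sign changes and for the effect of LAQ 7 the cause was not tested. Depth limits Lcn2, Timp1 and Steap4, each under 20 reads in every library.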

Other observations

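Transcription factors and metallothioneins among the further astrocyte genes were picked for description after their values were seen. Nfib, a member of the NFI family, was at 116, 125, 141 and 122 CPM in control and 156, 136, 120.0 and 157 CPM in LAQ, with a log2 fold change of 0.17 ± 0.10 (SE) (adjusted p = 0.521 by edgeR). Sox9, which specifies glia, had a log2 fold change of 0.08 ± 0.07 (SE), and Nfia of 0.04 ± 0.07 (SE). Id4 and Id3, inhibitors of basic helix-loop-helix factors, had 0.11 ± 0.14 (SE) and -0.03 ± 0.12 (SE), and the factor Rfx4 had -0.06 ± 0.12 (SE). The metallothioneins Mt1, Mt2 and Mt3, which are zinc-binding proteins, had 0.02 ± 0.08 (SE), 0.07 ± 0.10 (SE) and 0.10 ± 0.11 (SE). None of these 9 genes was called by edgeR, and none of the differences among them was tested.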
